A study of Mus musculus with 9 samples.

Results

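The collagen genes are the mouse genes that encode the chains of the collagens, named on the array's platform by Col, a type number, the letter a and a chain number. Of the 22180 genes that had a probe set with exactly 1 gene symbol, 44 carried such a name: 11 fibrillar collagens, 8 basement membrane collagens and 25 others. Where a gene had several probe sets, the one with the highest mean over all arrays was used. The 25 others are the beaded filament collagens of type VI (6 genes), the collagens with interrupted triple helices that sit on fibril surfaces, called FACIT (9), the transmembrane collagens (4), the short chain collagens (3) and Col7a1, Col26a1 and Col28a1.

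A collagen molecule is a rope of 3 chains, wound in the endoplasmic reticulum after some of their prolines and lysines have been hydroxylated, and secreted as a procollagen. Fibrillar collagens lose their end pieces outside the cell, pack into fibrils and are crosslinked by lysyl oxidases. Type IV collagens keep their ends and form the flexible sheet of basement membranes. Pre-adipocytes are fibroblasts and make mostly fibrillar collagen, whereas a fat cell is wrapped in a basement membrane, so the fibrillar matrix is known to give way to a type IV matrix as fat cells form.

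The samples were 3T3-L1 cells, an established mouse fibroblast line used as a model of pre-adipocytes, measured on 9 single-colour arrays. All cells had been growth-arrested for 48 h after confluence. In the first group cells received an siRNA against CD24, a small surface glycoprotein, and then for 6 h IBMX at 0.5 mM, a phosphodiesterase inhibitor that raises cyclic AMP, with dexamethasone (Dex) at 1 µM, a synthetic glucocorticoid. In the second group the same IBMX/Dex followed a scrambled siRNA, and the third group received vehicle in place of IBMX/Dex. Each group held 3 arrays, numbered 1 to 3 in the sample titles, and 100 nmol of siRNA was used per the labels, in 12-well plates. The labels do not say whether vehicle cells were given an siRNA, so a difference from vehicle may include transfection, and no label states that replicates came from different cultures, so p-values reflect the spread of these samples alone. The cells are 1 line, measured at 1 time after IBMX/Dex.

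All values are log2 expression as deposited, and a difference of 1 on this scale is a doubling. Array medians lay between 6.47 and 6.56 and arrays of a group correlated at 0.963 to 0.990. Testing was limited to genes for which the third highest value over the 9 arrays was at least 6.51, the overall median, which kept 12630 genes and 28 of the 44 collagens. Arrays of the same number deviated together from their group means, so 2 fits were made in limma: one on the group means alone and one that also takes the replicate number as a block, which compares arrays of the same number. The adjusted p of the fit without the block is given first, and that of the fit with the block is named as such. The threshold was an adjusted p of 0.05 over all 12630 genes.

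Cd24a, the gene targeted by the siRNA, read 10.15, 10.16 and 11.72 on the arrays labelled CD24 siRNA 1, 2 and 3, 11.19, 11.73 and 11.81 with scrambled siRNA, and 8.88, 9.92 and 9.49 in vehicle cells. The array labelled CD24 siRNA replicate 3 was as high as the scrambled arrays, and the other two CD24 siRNA arrays lay between the scrambled and the vehicle arrays. A second probe set of Cd24a read 7.22, 6.68 and 9.08 with CD24 siRNA, 9.28, 8.72 and 9.25 with scrambled siRNA and 6.78, 6.42 and 6.69 in vehicle cells, with the same array apart. CD24 siRNA minus scrambled siRNA was -0.90 ± 0.43 (SE) on the first probe set, with an adjusted p of 1 in limma. CD24 siRNA minus vehicle was 1.24 ± 0.43 (adjusted p = 0.124, with the block 0.0143). The label of that array is therefore not borne out by its target, and collagen results of the CD24 siRNA group are given with and without it. Of the pre-adipocyte and fibroblast markers, 7 of 8 measured genes were above the filter, among them Vim, Thy1, Dlk1, Pdgfra and Pdgfrb, as were 3 of 7 fat cell genes, Pparg, Fabp4 and Retn, while Adipoq, Plin1, Lep and Cidec were below it. Of the chondrocyte list Sox9, with a mean of 10.5 over the 9 arrays, and Comp were above the filter and the other 6 of 8, Acan among them, below it. Of the osteoblast list Alpl was above and the other 5 of 6, Bglap, Sp7, Ibsp, Dmp1 and Phex, below. Also above were 4 of 7 macrophage genes (Cd14, Csf1r, Cd68 and Lyz2) and 4 of 6 skeletal muscle genes (Myod1, Myog, Des and Tnnt2). So were 2 of 5 epithelial genes (Krt8 and Krt14) and 1 of 6 endothelial genes (Cdh5). Genes above the filter were thus not limited to the fibroblast list. Some of them lay near the filter level of 6.51, with means over the 9 arrays of 6.51 (Comp), 6.54 (Krt8), 6.55 (Myod1), 6.64 (Retn) and 6.65 (Cd34).

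IBMX/Dex after scrambled siRNA against vehicle asks which collagens moved within 6 h of the inducing agents. Col8a1, a short chain collagen, fell and was 2.18-fold lower with scrambled siRNA and IBMX/Dex. With the replicate number as a block, both chains of the ubiquitous type IV collagen rose (Col4a1 1.97-fold, Col4a2 1.79-fold), as did Col20a1 (1.37-fold), and the interstitial collagens Col1a1 (1.37-fold), Col1a2 (1.50-fold) and Col3a1 (1.42-fold) fell together with Col4a5 (1.37-fold). Without the block, 0 of the 28 tested collagens rose and 1 fell, or 3.57%; of all tested genes 3.33% rose and 3.6% fell, 6.94% in all. With the block, 3 rose and 5 fell, or 28.6%; of all tested genes 11.9% rose and 11.4% fell, 23.3% in all. Without scrambled replicate 3, 4 collagens passed with the block. These shares of collagens lie near those of all genes, and the median difference was 0.04 over the 28 collagens and 0.02 over all tested genes.

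The classes are given apart. Of the 9 tested fibrillar collagens, 0 rose and 3 fell with the block, with a median of -0.14. Of the 4 tested basement membrane collagens, 2 rose and 1 fell with the block, with a median of 0.51. Of the 15 others, 1 rose and 1 fell with the block, with a median of 0.07. With CD24 siRNA and IBMX/Dex against vehicle the counts were 0 and 2 fibrillar, 2 and 1 basement membrane and 1 and 1 other collagens that rose and fell with the block, which called 22.4% of all tested genes, and the medians were -0.11, 0.45 and 0.11. No test was made of a difference between classes, and both comparisons share the vehicle arrays.

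**Figure D1:**
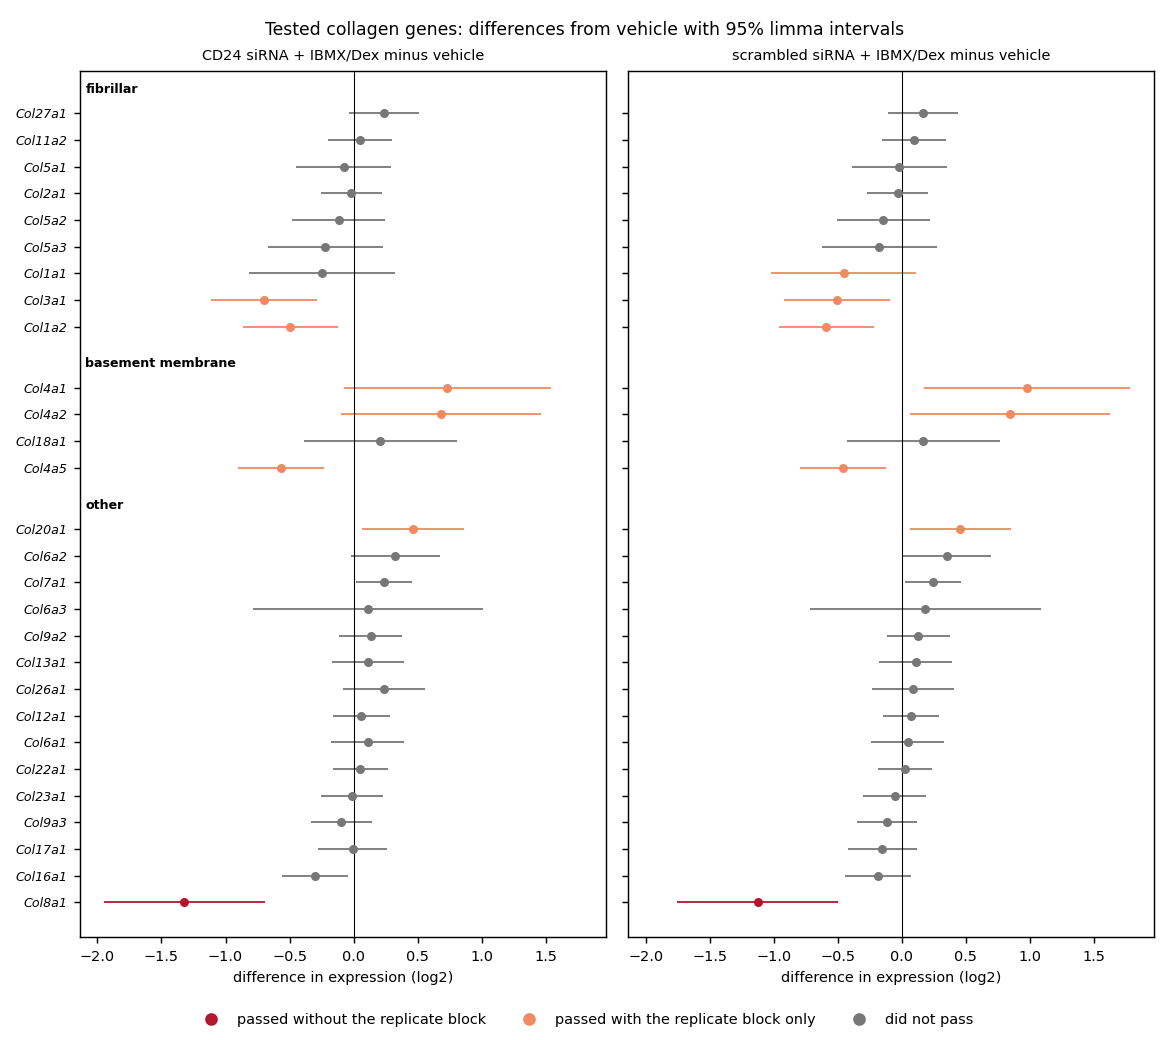
Log2 differences of the 28 tested collagens from vehicle, for CD24 siRNA with IBMX/Dex (left panel) and scrambled siRNA with IBMX/Dex (right panel), grouped by class, with points at the difference of group means and bars for its 95% confidence interval in limma without the block. Dark red marks Col8a1, which passed without the block, orange those that passed with the block alone, and grey the rest. Col4a1 and Col4a2 lie farthest to the right and Col8a1 farthest to the left in both panels.

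Col4a1 and Col4a2 encode the chains that form the main type IV collagen of most basement membranes. They lie head to head on chromosome 8, Col4a1 on the minus strand at chr8:11198423-11312889 and Col4a2 on the plus strand at chr8:11312805-11449287 (RefSeq, GRCm38.p6). The start sites in the RefSeq promoter table are 21 bases apart, at position 11312826 for Col4a1 and 11312805 for Col4a2. The window of 250 bases before to 50 after the start of Col4a2, chr8:11312555-11312854 on the plus strand, is shown. Both of these start sites lie in it, while the first base of the RefSeq gene of Col4a1, at 11312889, lies outside. The 78 bases that this window shares with the Col4a1 window, chr8:11312777-11313076, are in capitals.
Col4a2: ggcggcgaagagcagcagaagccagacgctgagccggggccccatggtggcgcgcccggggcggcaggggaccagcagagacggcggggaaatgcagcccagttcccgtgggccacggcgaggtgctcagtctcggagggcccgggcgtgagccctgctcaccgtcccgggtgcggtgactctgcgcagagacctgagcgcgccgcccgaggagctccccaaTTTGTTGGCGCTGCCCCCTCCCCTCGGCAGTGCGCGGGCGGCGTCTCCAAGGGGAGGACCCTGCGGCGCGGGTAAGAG

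Col4a1 read 10.91, 10.25 and 10.89 with CD24 siRNA and IBMX/Dex, 11.18, 10.48 and 11.13 with scrambled siRNA and IBMX/Dex, and 10.62, 9.18 and 10.05 in vehicle cells. Replicate 2 was the lowest array of each group, and the groups overlap, but in each number the vehicle array was below both IBMX/Dex arrays. With scrambled siRNA the difference from vehicle was 0.56, 1.30 and 1.07 by number, with a mean of 0.98 ± 0.36 (SE). It did not pass without the block (adjusted p = 0.142) and passed with it (0.00185, SE 0.15). With CD24 siRNA the difference from vehicle was 0.29, 1.07 and 0.84 by number, with a mean of 0.73 ± 0.36, an adjusted p of 0.270 and, with the block, 0.0077. Both calls with the block held with each of the 9 arrays left out in turn. Without the block, the difference of scrambled siRNA from vehicle ran from 0.59 to 1.32 as arrays were left out. Without vehicle replicate 2, the array with the lowest Col4a1, the group means differed by 0.59 with scrambled siRNA and by 0.35 with CD24 siRNA.

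Col4a2 followed the same order of arrays. It read 10.50, 9.70 and 10.31 with CD24 siRNA, 10.54, 10.02 and 10.42 with scrambled siRNA, and 10.07, 8.67 and 9.71 in vehicle cells. The vehicle array was again the lowest of its number, and array 2 the lowest of its group. Scrambled siRNA minus vehicle was 0.84 ± 0.35, with an adjusted p of 0.189 and, with the block, 0.00414, a call that held with each array left out in turn. CD24 siRNA minus vehicle was 0.68 ± 0.35, with an adjusted p of 0.290 and, with the block, 0.0113. That call was lost without CD24 siRNA replicate 2, where the adjusted p was 0.0512. Without vehicle replicate 2 the group means of Col4a2 differed by 0.44 with scrambled siRNA and by 0.28 with CD24 siRNA.

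Col4a5 encodes a chain of the rarer type IV networks, known above all from kidney, and lies on the X chromosome beside Col4a6. It read 7.51, 7.21 and 7.14 with CD24 siRNA, 7.59, 7.48 and 7.14 with scrambled siRNA, and 7.97, 7.82 and 7.79 in vehicle cells. Every vehicle array was above every IBMX/Dex array, and this chain fell with the block where Col4a1 and Col4a2 rose. With scrambled siRNA the difference from vehicle was -0.46 ± 0.15 (adjusted p = 0.104, with the block 0.0112), and it no longer passed with the block once scrambled replicate 3 was left out. With CD24 siRNA the difference from vehicle was -0.57 ± 0.15 (adjusted p = 0.0538, with the block 0.00427), and that call held with each array left out. Col4a3, Col4a4 and Col4a6, the other type IV chains, were below the filter on these arrays.

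Col18a1, a basement membrane collagen whose end piece is endostatin, read 8.00, 7.44 and 7.87 with CD24 siRNA, 7.81, 7.37 and 8.01 with scrambled siRNA, and 7.55, 7.09 and 8.06 in vehicle cells. Vehicle array 3 was the highest of all 9, and the groups overlap. Neither difference passed: 0.17 ± 0.26 for scrambled siRNA (adjusted p = 0.766, with the block 0.375) and 0.21 ± 0.26 for CD24 siRNA (0.708, with the block 0.270). Col15a1, the other member of that pair, was below the filter.

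**Figure D2:**
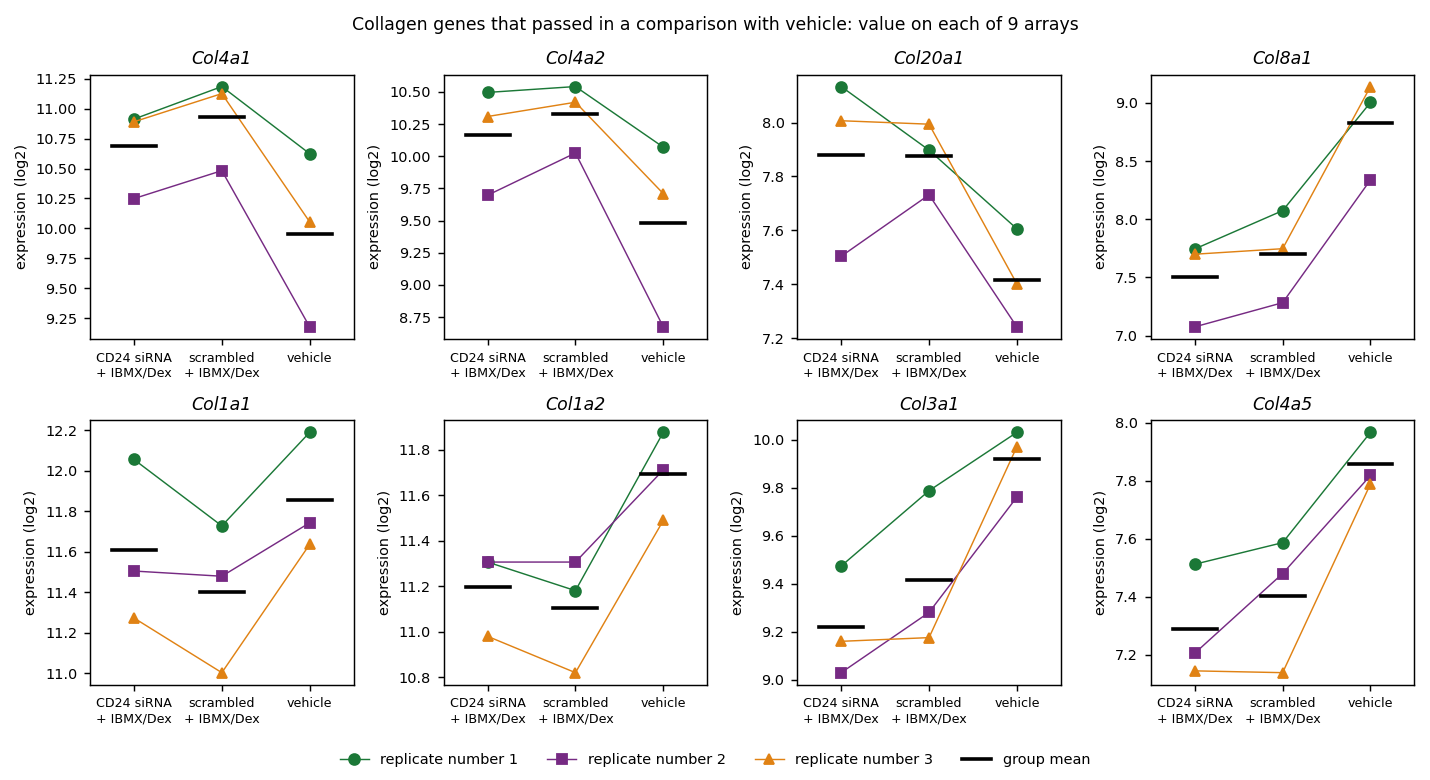
Log2 expression of 8 collagens on the 9 arrays, in columns for CD24 siRNA with IBMX/Dex, scrambled siRNA with IBMX/Dex and vehicle, with lines that join arrays of the same replicate number and bars at the group means. In Col4a1 and Col4a2 the vehicle array of each number is below both its IBMX/Dex arrays, and in Col8a1 all vehicle arrays, from 8.34 to 9.14, are above all IBMX/Dex arrays, from 7.08 to 8.07.

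Of the fibrillar collagens, Col1a2 encodes the second chain of type I collagen, the main collagen of skin, bone and tendon, and lies on chromosome 6 at chr6:4505618-4541543. Its window, chr6:4505368-4505667 on the plus strand (GRCm38.p6), is shown as that of a falling fibrillar collagen, with GGGCGG (the GC box) and CCAAT, and their reverse complements, in capitals.
Col1a2: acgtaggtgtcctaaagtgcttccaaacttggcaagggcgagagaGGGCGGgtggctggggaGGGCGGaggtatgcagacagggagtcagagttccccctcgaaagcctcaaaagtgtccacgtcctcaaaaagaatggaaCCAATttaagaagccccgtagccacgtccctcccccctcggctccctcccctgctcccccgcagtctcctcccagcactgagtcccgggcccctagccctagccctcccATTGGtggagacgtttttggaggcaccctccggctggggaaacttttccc

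Col1a2 read 11.31, 11.31 and 10.98 with CD24 siRNA, 11.18, 11.31 and 10.82 with scrambled siRNA, and 11.88, 11.71 and 11.49 in vehicle cells. Every vehicle array was above every IBMX/Dex array. Scrambled siRNA minus vehicle was -0.70, -0.40 and -0.67 by number, with a mean of -0.59 ± 0.16 (SE). The adjusted p was 0.0663, and 0.00275 with the block. CD24 siRNA minus vehicle was -0.49 ± 0.16, with an adjusted p of 0.114 and, with the block, 0.00666. Both calls with the block held with each array left out. A second, dimmer probe set of Col1a2 had 8.54, 7.92 and 7.98 with CD24 siRNA, 9.14, 7.90 and 8.11 with scrambled siRNA, and 9.98, 8.04 and 9.23 in vehicle cells, where the vehicle array was also the highest of each number.

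Col1a1, the first chain of type I collagen, read 12.06, 11.50 and 11.27 with CD24 siRNA, 11.73, 11.48 and 11.002 with scrambled siRNA, and 12.19, 11.74 and 11.64 in vehicle cells. Array 1 was the highest and array 3 the lowest of each group, and the groups overlap. In each number the vehicle array was the highest and the scrambled array the lowest. With scrambled siRNA the difference from vehicle was -0.45 ± 0.25, with an adjusted p of 0.330 and, with the block, 0.0132, a call lost without scrambled replicate 1 or 3. The group means differed by -0.25 without scrambled replicate 3 and by -0.29 without vehicle replicate 1. With CD24 siRNA the difference from vehicle was -0.25 ± 0.25 and did not pass (adjusted p = 0.631, with the block 0.126).

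Col3a1 encodes type III collagen, which shares fibrils with type I in soft tissue. It read 9.47, 9.03 and 9.16 with CD24 siRNA, 9.79, 9.28 and 9.18 with scrambled siRNA, and 10.03, 9.76 and 9.97 in vehicle cells. All CD24 siRNA arrays were below all vehicle arrays, and scrambled array 1 was just above vehicle array 2. CD24 siRNA minus vehicle was -0.70 ± 0.18, or 1.62-fold lower (adjusted p = 0.0539, with the block 0.00285), and the call with the block held with each array left out. Scrambled siRNA minus vehicle was -0.51 ± 0.18 (adjusted p = 0.138, with the block 0.0120), a call lost without scrambled replicate 3.

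Col27a1, a fibrillar collagen of cartilage, read 8.31, 8.27 and 8.44 with CD24 siRNA, 8.24, 8.16 and 8.41 with scrambled siRNA, and 8.11, 7.93 and 8.27 in vehicle cells. The groups overlap, and neither difference passed: 0.17 ± 0.12 for scrambled siRNA (adjusted p = 0.471, with the block 0.213) and 0.24 ± 0.12 for CD24 siRNA (0.296, with the block 0.0888). The other 5 tested fibrillar collagens, the type V chains Col5a1, Col5a2 and Col5a3 with the cartilage collagens Col2a1 and Col11a2, differed from vehicle by -0.18 to 0.09 with scrambled siRNA and by -0.22 to 0.05 with CD24 siRNA, and did not pass. Col11a1 and Col24a1 were below the filter.

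Among the other collagens, Col8a1 encodes a short chain collagen of vessel walls and of the basement membrane of the corneal endothelium, and lies on chromosome 16 at chr16:57624256-57754737 on the minus strand. Its window, chr16:57754688-57754987 on the minus strand (GRCm38.p6), is shown since Col8a1 is the collagen that passed in both fits, with the reverse complement of GGGCGG in capitals.
Col8a1: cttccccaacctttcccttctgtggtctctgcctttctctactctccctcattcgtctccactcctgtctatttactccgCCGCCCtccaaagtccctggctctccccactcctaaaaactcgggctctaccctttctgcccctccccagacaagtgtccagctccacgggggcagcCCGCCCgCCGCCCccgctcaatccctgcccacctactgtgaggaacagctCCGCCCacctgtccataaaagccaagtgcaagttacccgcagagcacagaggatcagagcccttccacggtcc

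Col8a1 read 7.75, 7.08 and 7.70 with CD24 siRNA, 8.07, 7.28 and 7.75 with scrambled siRNA, and 9.003, 8.34 and 9.14 in vehicle cells. All vehicle arrays were above all IBMX/Dex arrays, and array 2 was the lowest of each group. With scrambled siRNA the difference from vehicle was -0.93, -1.05 and -1.39 by number, with a mean of -1.13 ± 0.28 (SE), or 2.18-fold lower. The adjusted p was 0.0446, and 0.000169 with the block. With CD24 siRNA the difference from vehicle was -1.26, -1.26 and -1.44 by number, with a mean of -1.32 ± 0.28, or 2.50-fold lower (adjusted p = 0.0262, with the block 6.81e-05).

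With the block, both Col8a1 calls held with each of the 9 arrays left out in turn. Without the block, the call for scrambled siRNA held without CD24 siRNA replicate 2 (adjusted p = 0.0479) or vehicle replicate 2 (0.0302), and was lost without any 1 of the other 7, with an adjusted p of up to 0.136. It was also lost with no filter (0.0699), with centring on array medians (0.0540) and in a fit of the scrambled and vehicle arrays alone (0.0829). The call for CD24 siRNA was lost when any CD24 siRNA array, vehicle array 1 or vehicle array 3 was left out, with an adjusted p of up to 0.0884. Col8a2 and Col10a1, the other short chain collagens, were below the filter.

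Col20a1 encodes a FACIT collagen, known from tissues of the chick embryo. Its RefSeq gene spans chr2:180983323-181017545. The window held, chr2:180986285-180986584 on the plus strand (GRCm38.p6), lies inside the gene and not at its first base. It is shown as the single one of the 7 windows held for called collagens with AGAACA, the core letters that the glucocorticoid receptor is known to read. These and their reverse complement are in capitals.
Col20a1: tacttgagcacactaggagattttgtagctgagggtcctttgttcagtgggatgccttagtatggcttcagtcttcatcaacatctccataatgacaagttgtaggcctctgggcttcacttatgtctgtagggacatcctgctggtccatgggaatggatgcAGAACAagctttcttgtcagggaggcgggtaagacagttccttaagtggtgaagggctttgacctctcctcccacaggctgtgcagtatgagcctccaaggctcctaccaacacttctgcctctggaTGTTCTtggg

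Col20a1 read 8.13, 7.50 and 8.01 with CD24 siRNA, 7.90, 7.73 and 7.99 with scrambled siRNA, and 7.61, 7.24 and 7.40 in vehicle cells. All scrambled arrays were above all vehicle arrays, and CD24 siRNA array 2 was below vehicle array 1. Scrambled siRNA minus vehicle was 0.46 ± 0.18 (adjusted p = 0.161, with the block 0.0172), a call lost without scrambled replicate 2 or 3 or vehicle replicate 3. CD24 siRNA minus vehicle was 0.46 ± 0.18 (adjusted p = 0.156, with the block 0.0168), a call lost when CD24 siRNA array 1 or 3 or vehicle array 3 was left out.

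Col6a2, a chain of the type VI beaded filaments that surround many cells, read 10.54, 10.23 and 10.32 with CD24 siRNA, 10.41, 10.55 and 10.21 with scrambled siRNA, and 10.32, 9.88 and 9.92 in vehicle cells. The groups overlap through vehicle array 1, and neither difference passed: 0.35 ± 0.15 for scrambled siRNA (adjusted p = 0.213, with the block 0.0655) and 0.33 ± 0.15 for CD24 siRNA (0.255, with the block 0.0864). Col7a1, the collagen of anchoring fibrils under the epidermis, read 7.39, 7.27 and 7.38 with CD24 siRNA, 7.33, 7.27 and 7.48 with scrambled siRNA, and 7.09, 7.15 and 7.10 in vehicle cells. The vehicle arrays were below all IBMX/Dex arrays, but the differences of 0.25 ± 0.10 for scrambled siRNA (adjusted p = 0.176, with the block 0.0922) and 0.23 ± 0.10 for CD24 siRNA (0.196, with the block 0.108) did not pass.

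The other 11 tested collagens outside the fibrillar and basement membrane classes differed from vehicle by -0.19 to 0.18 with scrambled siRNA and by -0.30 to 0.24 with CD24 siRNA, and none passed in either fit. Col6a1, a partner of Col6a2 in type VI collagen, read 10.92, 11.01 and 11.01 with CD24 siRNA, 10.77, 11.17 and 10.81 with scrambled siRNA, and 10.91, 10.93 and 10.77 in vehicle cells. Col12a1, which coats fibrils, lay between 10.54 and 10.80 on the 9 arrays, and Col16a1, another FACIT, between 7.51 and 8.00. The FACIT chains Col9a2 and Col9a3, known from cartilage, lay between 7.77 and 8.17 and between 6.72 and 7.03, and Col22a1, known from junctions of muscle and tendon, between 6.49 and 6.68. The transmembrane collagens lay between 6.55 and 6.97 (Col13a1), 6.70 and 7.15 (Col17a1) and 7.23 and 7.56 (Col23a1), and Col26a1 between 7.27 and 7.83. None of these genes had groups that did not overlap. Groups did not overlap for 5 of the 28 collagens with scrambled siRNA against vehicle (Col7a1 and Col20a1 lay above vehicle, Col1a2, Col4a5 and Col8a1 below), while 25.2% of all tested genes had groups that did not overlap. With CD24 siRNA against vehicle the 5 were Col7a1, above vehicle, and Col1a2, Col3a1, Col4a5 and Col8a1, below it, beside 25.8% of all tested genes.

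The array labelled CD24 siRNA replicate 3 bears on the comparison of CD24 siRNA and IBMX/Dex with vehicle. With all arrays, 0 collagens rose and 1 fell without the block, while 2.92% of all tested genes rose and 3.73% fell, 6.65% in all. With the block 3 collagens rose and 4 fell, while 10.4% of all tested genes rose and 12.1% fell, 22.4% in all. Without that array, 0 of 28 collagens were called without the block, where limma called 2.54% of all tested genes, and 6 were called with the block, where it called 14.0%. Without that array Col8a1 was at -1.42 against vehicle and did not pass without the block (adjusted p = 0.0676), while its call with the block held.

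CD24 siRNA against scrambled siRNA, both with IBMX/Dex, asks whether collagens differed with the siRNA against CD24. limma called 0 of the 28 collagens and 0 of all 12630 genes, with or without the block. Unadjusted, 0 collagens and 30 genes had a p under 0.05 in limma without the block, 0 and 219 with it. The genes not called include the target, Cd24a, at -0.90 ± 0.43. The comparison therefore cannot tell how collagens respond to less CD24. The collagen differences ran from -0.25 to 0.21 with a median of 0.00, with 15 above and 13 below 0. No collagen had groups that did not overlap, while 2.41% of all tested genes did.

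Col4a1 lay farthest below 0, at -0.25 with a 95% confidence interval of -1.05 to 0.56, and was -0.27, -0.23 and -0.24 by number. With the block its interval was -0.58 to 0.08. Col1a1 lay farthest above 0, at 0.21 with an interval of -0.36 to 0.78. The intervals of the other named collagens were -0.61 to 0.22 for Col3a1, -0.45 to 0.22 for Col4a5, -0.12 to 0.41 for Col17a1, the collagen of the junctions that hold epithelia to their base, and -0.17 to 0.47 for Col26a1. When the array labelled CD24 siRNA replicate 3 was left out, the differences ran from -0.35 to 0.38, with 8 above and 20 below 0, and limma again called 0 collagens.

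Collagen levels were also compared between the replicate numbers. An F test of the replicate number in the fit with the block called 9 of the 28 collagens, or 32.1%, against 24.0% of all tested genes. They were Col6a3, Col8a1, Col4a1, Col1a1, Col4a2, Col18a1, Col5a3, Col1a2 and Col5a1, in the order of their p-values. Array 2 was the lowest of all 3 groups for 7 of these 9 and for 12 of the 28 tested collagens, while this held for 11.8% of all tested genes. Col6a3, the long chain of type VI collagen, read 10.64, 9.36 and 10.40 with CD24 siRNA, 10.34, 9.82 and 10.45 with scrambled siRNA, and 10.25, 9.25 and 10.55 in vehicle cells. Array 2 was the lowest of each group, and the levels of the 3 groups overlap. Averaged over the groups, the numbers of Col6a3 were 0.99 apart (adjusted p = 0.00377 for the number), against a difference of 0.18 between scrambled siRNA and vehicle. For Col4a1 the numbers were 0.94 apart (adjusted p = 0.00532), and for Col1a1 0.69 (0.00534), where array 1 was the highest and array 3 the lowest in all groups. The titles do not say what the numbers stand for.

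**Figure D3:**
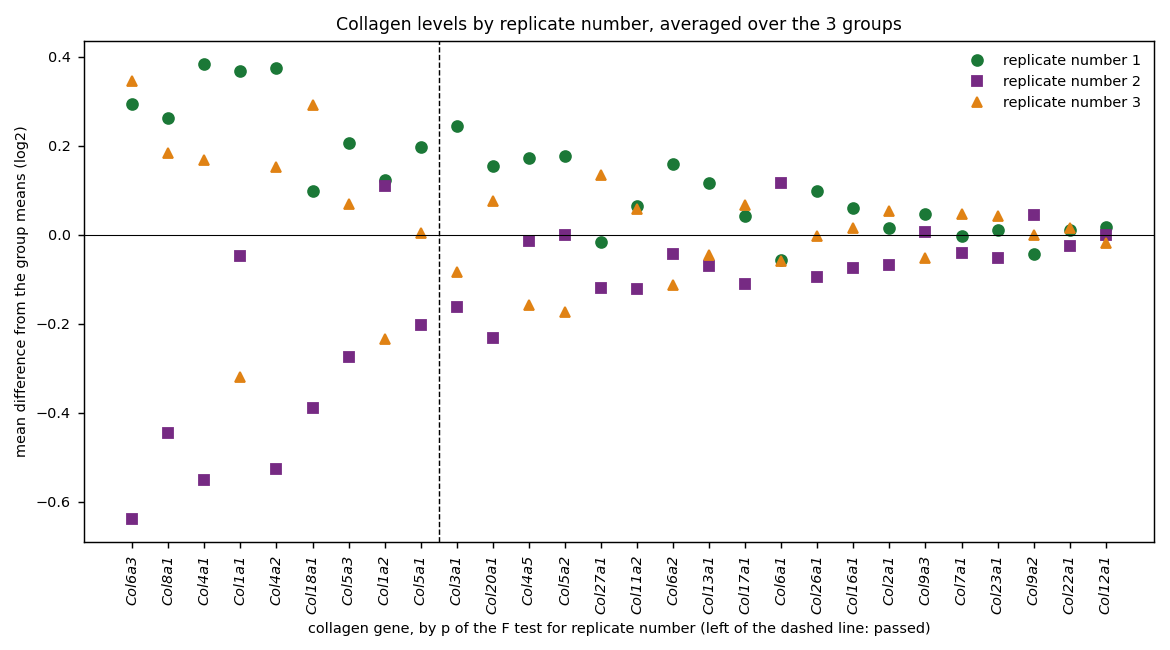
Mean deviation of each replicate number from its group mean, averaged over the 3 groups, in log2 units, for the tested collagens, with 1 point per number and a dashed line between the 9 collagens that passed the F test and the rest. Number 2 is the lowest in Col6a3, Col8a1, Col4a1 and Col4a2, and number 3 in Col1a1 and Col1a2.

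The 16 collagens below the filter were Col4a3, Col4a4, Col4a6, Col6a4, Col6a5, Col6a6, Col8a2, Col9a1, Col10a1, Col11a1, Col14a1, Col15a1, Col19a1, Col24a1, Col25a1 and Col28a1. Their values ran from 5.15 to 6.85, and 3 of them reached the filter level on at least 1 array. Col25a1 was the nearest below, where the third highest value was 6.5, and Col22a1 the nearest above, where it was 6.55. With no filter limma called 0 of these 16 against vehicle, and their smallest adjusted p was 0.320 without and 0.138 with the block. The second probe sets of Col5a1 and Col6a1, like that of Col1a2, were dimmer than the ones used. Unlike that of Col1a2, they differed from vehicle with the opposite sign. Col5a1 was at 0.19 with scrambled siRNA and 0.05 with CD24 siRNA on the second probe set, and at -0.02 and -0.08 on the one used. Col6a1 was at -0.11 with scrambled siRNA and -0.23 with CD24 siRNA on the second, and at 0.05 and 0.11 on the one used.

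The genes that modify, export, trim, crosslink, bind or degrade collagen were followed in 7 lists of 62 genes, of which 48 were tested, 9 were below the filter and 5 were not named on a probe set of 1 gene. With scrambled siRNA and IBMX/Dex against vehicle, 3 rose and 0 fell, or 6.25%, where 6.94% of all tested genes were called, and with the block 5 rose and 5 fell, or 20.8%, against 23.3% of all. With CD24 siRNA and IBMX/Dex, 2 rose and 1 fell, or 6.25% against 6.65% of all, and with the block 4 rose and 7 fell, or 22.9% against 22.4%. These shares lie near those of all genes. The genes that fell with the block include P3h2 in both comparisons and Mmp13 with CD24 siRNA, which lay near or below the filter level, as given below. With CD24 siRNA against scrambled siRNA limma called 0 of the 48.

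Tll1 encodes a tolloid protease that cuts the end piece off procollagens. It read 9.63, 9.09 and 9.84 with CD24 siRNA, 9.55, 9.13 and 10.02 with scrambled siRNA, and 6.46, 6.59 and 6.06 in vehicle cells, with no overlap. The measured log2 difference was 3.20 ± 0.26 with scrambled siRNA (adjusted p = 0.000358) and 3.15 ± 0.26 with CD24 siRNA (0.000373), and both calls held with each array left out, in either fit. As 2 of the 3 vehicle values lay below the filter level, the fold is given against vehicle values raised to that level, at least 8.17-fold higher with scrambled siRNA and at least 7.90-fold higher with CD24 siRNA.

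Pcolce2, a protein that enhances this cleavage, read 8.29, 8.20 and 7.94 with CD24 siRNA, 8.22, 8.22 and 7.94 with scrambled siRNA, and 7.19, 7.14 and 7.66 in vehicle cells. The vehicle arrays were below all others, and Pcolce2 rose 1.73-fold with scrambled siRNA (adjusted p = 0.0255) and 1.76-fold with CD24 siRNA (0.0239). Without the block the call for scrambled siRNA held without 4 of the 9 arrays left out in turn and that for CD24 siRNA without 5, and with the block both held with each array left out. In limma fits of the 2 groups compared alone, without the block, both calls were lost (adjusted p = 0.0647 with scrambled siRNA and 0.0543 with CD24 siRNA). Of the 5 tested genes of propeptide removal these 2, Tll1 and Pcolce2, rose.

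Of 13 tested genes of prolyl and lysyl hydroxylation and chain glycosylation, 1 rose without the block. It was P4hb, the shared subunit of prolyl 4-hydroxylase, at 12.42, 12.14 and 12.31 with CD24 siRNA, 12.45, 12.20 and 12.31 with scrambled siRNA, and 11.98, 11.74 and 11.82 in vehicle cells. The groups do not overlap, and P4hb differed by 0.47 ± 0.12 with scrambled siRNA (adjusted p = 0.0486, with the block 0.00483) and by 0.44 ± 0.12 with CD24 siRNA (0.0626, with the block 0.00676). The call for scrambled siRNA without the block held without 1 of the 9 arrays, vehicle replicate 1, and was lost without any of the other 8. It was also lost with no filter (adjusted p = 0.0686), with centring on array medians (0.0851) and in a fit of the scrambled and vehicle arrays alone (0.0975). With the block 2 of the 13 rose and 1 fell in either comparison. P3h2, named after its values were seen, was the gene that fell, at -0.46 with scrambled siRNA and -0.39 with CD24 siRNA. It passed the filter through vehicle arrays 2 and 3 and CD24 siRNA array 3, and lay below the filter level on all other arrays. With its IBMX/Dex values raised to that level, P3h2 was at least 1.08-fold lower than in vehicle cells in either comparison. Plod2, a lysyl hydroxylase of collagen chains, singled out here after its values were seen, rose with the block, by 1.55 ± 0.42 with scrambled siRNA (adjusted p = 0.0618, with the block 0.00105) and by 1.21 ± 0.42 with CD24 siRNA (0.130, with the block 0.00385).

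Of 8 tested chaperones and export genes none passed without the block, and with it 1 rose and 1 fell with scrambled siRNA and none passed with CD24 siRNA. Mia3, which loads procollagen into export carriers, was 0.33 higher with scrambled siRNA (adjusted p = 0.0744, with the block 0.0304) and 0.28 higher with CD24 siRNA (0.118, with the block 0.0542). Tmem38b, a potassium channel of the endoplasmic reticulum, was 0.28 higher with scrambled siRNA (0.174, with the block 0.0653) and 0.04 higher with CD24 siRNA (0.868).

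Mmp14, the membrane-bound collagenase, read 10.85, 10.32 and 10.95 with CD24 siRNA, 11.03, 10.66 and 10.98 with scrambled siRNA, and 11.55, 11.44 and 11.86 in vehicle cells. All vehicle arrays were above the rest, and Mmp14 fell by 0.91 ± 0.19 with CD24 siRNA (adjusted p = 0.0257), a call lost when CD24 siRNA array 1 or 2 or vehicle array 3 was left out. That call was also lost in a fit of the CD24 siRNA and vehicle arrays alone (0.0539). With scrambled siRNA Mmp14 was at -0.73 ± 0.19 (0.0541, with the block 0.00183). It was the single gene of 6 in breakdown and uptake that passed without the block. With the block 4 of the 6 fell with CD24 siRNA, or 66.7% against 22.4% of all tested genes, and 1, Mmp14, with scrambled siRNA, or 16.7% against 23.3%. The other 3, named after their values were seen, were the matrix proteases Mmp9 (-0.62, adjusted p = 0.203, with the block 0.0242) and Mmp13 (-0.80, 0.183, with the block 0.0103), and the collagen uptake receptor Mrc2 (-0.40, 0.133, with the block 0.0347). Mmp13 passed the filter through vehicle and scrambled arrays alone, as it lay below the filter level on all CD24 siRNA arrays. With its CD24 siRNA values raised to that level, Mmp13 was at least 1.43-fold lower than in vehicle cells. The block calls of Mmp9 and Mrc2 held with 4 and 3 of the 9 arrays left out in turn, and that of Mmp13 with 8. All 6 lay below 0 in each comparison with vehicle, with a median of -0.54 with CD24 siRNA and -0.39 with scrambled siRNA, against 0.02 over all tested genes in both, and these comparisons share the vehicle arrays. With CD24 siRNA against scrambled siRNA all 6 were below 0 too, with a median of -0.17 against -0.01 over all genes, and none passed.

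The crosslinking enzyme Loxl4 was at -0.37 with scrambled siRNA (adjusted p = 0.0943, with the block 0.0156) and at -0.34 with CD24 siRNA (0.124, with the block 0.0241). Lox itself was at -0.17 with scrambled siRNA and -0.18 with CD24 siRNA and passed in neither fit. Of the fibril binding genes, Thbs2, a matrix protein that shapes fibrils, was at -0.43 with scrambled siRNA (adjusted p = 0.212, with the block 0.00887) and at -0.54 with CD24 siRNA (0.129, with the block 0.00337), while decorin (Dcn) was at -0.10 with scrambled siRNA and -0.14 with CD24 siRNA, and passed in neither. Of the receptors, the integrin chains Itga1 (-0.24 with scrambled and -0.28 with CD24 siRNA) and Itga2 (0.28 with scrambled and 0.47 with CD24 siRNA) did not pass.

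**Figure D4:**
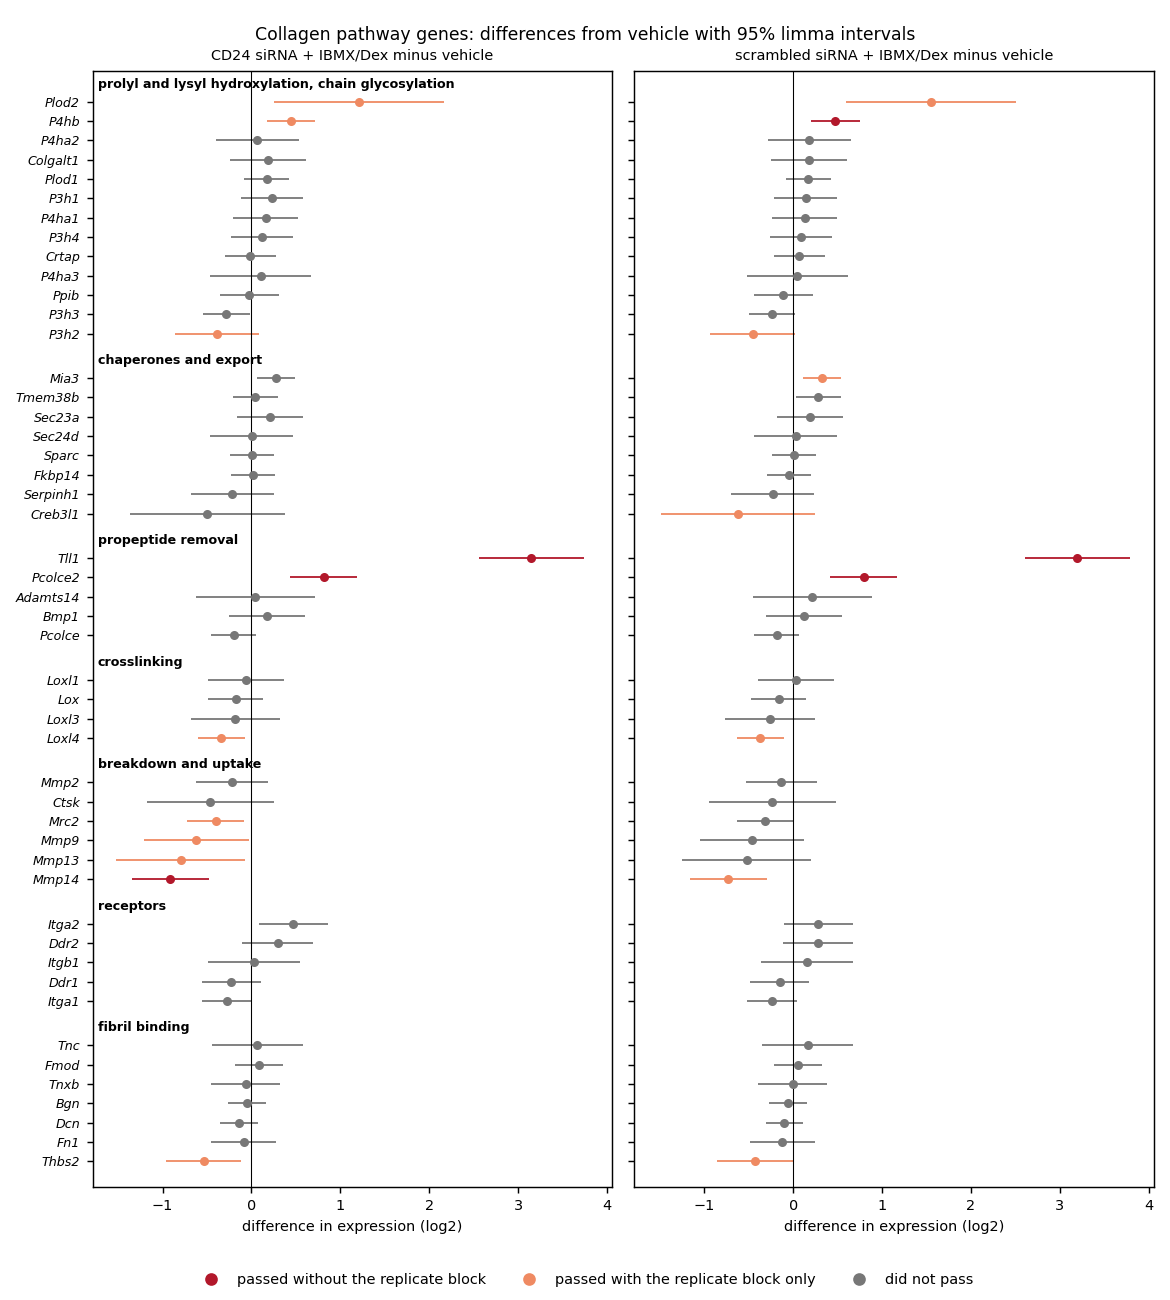
Log2 differences from vehicle of the 48 tested genes of the collagen processing lists, grouped by list, for CD24 siRNA with IBMX/Dex (left panel) and scrambled siRNA with IBMX/Dex (right panel), with points at the difference of group means and bars for the 95% confidence interval in limma without the block. Dark red marks genes that passed without the block, orange those that passed with it alone, and grey the rest. Tll1, at 3.15 and 3.20, stands far to the right of all others.

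Of the fibroblast list 0 genes rose and 2 fell, Pdgfra at -1.10 with CD24 siRNA (adjusted p = 0.0160) and -1.04 with scrambled siRNA (0.0185), and Pdgfrb at -1.61 with CD24 siRNA (0.00206) and -1.66 with scrambled siRNA (0.00154). The summed log2 level of the 8 measured genes of that list was 80.8 to 81.4 with CD24 siRNA, 80.3 to 81.3 with scrambled siRNA and 83.2 to 85.0 in vehicle cells. This gap largely restates Pdgfra and Pdgfrb. Thy1, Dlk1, Cd34, Vim and S100a4 differed from vehicle by -0.14 to 0.24 with scrambled siRNA and by -0.11 to 0.17 with CD24 siRNA, and passed in neither fit. Among the osteoblast genes, 1 of 6 measured rose, Alpl, by 0.61 with CD24 siRNA (adjusted p = 0.0376) and by 0.60 with scrambled siRNA (0.0397), and the summed level of the 6 was 36.4 to 36.7 with CD24 siRNA, 35.9 to 36.5 with scrambled siRNA and 35.2 to 35.7 in vehicle cells. Of the muscle list 1 of 6 measured genes fell, Des, at -0.71 with CD24 siRNA (adjusted p = 0.0200) and -0.70 with scrambled siRNA (0.0195). No gene of the fat cell, chondrocyte, macrophage, endothelial or epithelial lists passed without the block. With the block 4 of them did, each in 1 comparison with vehicle: with CD24 siRNA the fat cell gene Pparg rose by 0.40 (adjusted p = 0.0352) and the chondrocyte gene Sox9 fell by 0.47 (0.0172), and with scrambled siRNA the macrophage genes Cd14 rose by 0.54 (0.0230) and Lyz2 fell by 0.98 (0.0430). With each array left out in turn, these calls held in 3 of 9 cases for Pparg, 7 for Sox9, 5 for Cd14 and 3 for Lyz2. The summed log2 levels of the fat cell, chondrocyte and macrophage lists overlapped between the groups, for the fat cell list at 48.9 to 50.2 with CD24 siRNA, 49.5 to 50.8 with scrambled siRNA and 48.7 to 49.6 in vehicle cells, for the chondrocyte list at 50.2 to 52.1, 50.8 to 51.6 and 50.4 to 51.8 in the same order, and for the macrophage list at 47.3 to 48.9, 46.4 to 49.2 and 46.2 to 48.3. The part of these shifts in the collagen differences was not tested, and fewer cells of a kind cannot be told apart from less RNA per cell.

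RefSeq start windows of 300 bases were held for 35 of the 44 collagens and for 7 of the 8 called ones. AGAACA, the core of the glucocorticoid response element, on either strand, is in 19.0% of all 32851 windows and, of the 7, in that of Col20a1, where its first base is at -87 from the start site and, on the other strand, at 40. That start site lies inside the Col20a1 gene and not at its first base. The cyclic AMP response element TGACGTCA, which is in 1.79% of all windows, is in none of the 7, and its core TGACG, which it contains and which is in 20.8% of all windows, is in that of Col4a5. GGGCGG, in 35.7% of all windows, is in those of Col1a2, Col4a1, Col4a2, Col4a5 and Col8a1, 4 times in Col8a1. The match of Col4a1 lies in the bases shared with the Col4a2 window and is counted in both. CCAAT, in 37.4% of all windows, is in those of Col1a2, Col4a1, Col4a2 and Col4a5, and the window of Col3a1 holds none of these letters. A match is a description of the sequence and says nothing of binding.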

How the data were processed

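RNA of the 9 samples was hybridised to 1 single-colour array each, with 250 ng of RNA labelled per the labels' protocols. The deposited log2 values were made by the authors with RMA in the oligo package, per the submitters' processing notes; versions, and whether other arrays entered the normalization, were not given in the sources used here. RMA brings the arrays to nearly 1 distribution, which would hide a shift of most transcripts, and shrinks differences between dim signals. The values were used as deposited, and 0 value columns were left unused.

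Of 41345 probe sets, 23521 had 1 symbol in the platform's annotation, 1814 had several and 16010 were unnamed here; the last 2 kinds were not tested. Comparison with a mouse RefSeq table (GRCm38.p6) through gene identifiers changed 0 symbols. Of the 22180 genes, 1082 had more than 1 probe set. Differences were fitted with lmFit and eBayes in limma 3.58.1 (R 4.3.3) on all 9 arrays, with Benjamini-Hochberg adjustment over the 12630 genes above the filter; p-values are two-sided. Both fits were tested on simulated data, with a shift by replicate number added only for the fit with the block. The fit without the block was thus not tried on data with such a shift.

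Deviations from the group means correlated across genes at 0.377 to 0.732 for same-numbered arrays and at 0.116 or less for the rest, and for 9 of 9 arrays the closest other array had the same number. The numbers come from the titles and were taken to pair the samples.

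The members, classes and gene lists were chosen with earlier results of these data known. The genes named are the collagens that passed in either fit, the 4 of each class with the smallest p against vehicle with scrambled siRNA and the 2 with the smallest p between siRNAs, and, of each list of collagen processing, those that passed without the block or otherwise the 2 with the smallest p. Alternatives were the block, each array left out, other filters, quantile normalization, centring, the mean of probe sets, an intensity trend and fits of 6 arrays. Promoter windows came from RefSeq. Protein sequences were not used here.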

Additional observations from a re-analysis of the deposited data

How the results depend on the processing

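The number of arrays, 3 a group, limits the precision, and the replicate block decides most calls. For scrambled siRNA with IBMX/Dex against vehicle, 1 collagen was called without the block and 8 with it; the count was 0 with no filter, with centring on array medians or with the 6 arrays of the groups compared alone, and 2 with quantile normalization. Leaving out each array gave 0 to 1 collagens without the block and 4 to 8 with it, with 4 without scrambled replicate 3. The block with centring, with no filter or with 6 arrays, chosen after seeing the data like all settings joined to the block other than leaving out an array, gave 8, and with quantile normalization 9. For CD24 siRNA with IBMX/Dex against vehicle, 1 collagen was called without the block and 7 with it, 2 with a filter at the 75th percentile or quantile normalization, 7 with the block and centring, no filter or 6 arrays, and 9 with the block and quantile normalization; leaving out each array gave 0 to 2 without the block and 6 to 7 with it. Over all genes, scrambled siRNA against vehicle gave 876 calls without the block, 2942 with it, 389 with 6 arrays, 3551 with the block and quantile normalization, 2511 with centring, 2299 with no filter and 2405 with 6 arrays. Leaving out each array gave 313 to 852 calls and, with the block, 1583 to 2924. CD24 siRNA against vehicle gave 840 calls, 2831 with the block, 461 with 6 arrays, 3454 with the block and quantile normalization, 2385 with centring, 2062 with no filter and 1994 with 6 arrays, and leaving out each array gave 321 to 857 and, with the block, 1599 to 2647. CD24 siRNA against scrambled siRNA gave 0 calls under every alternative run. The block changed no call of a named gene other than those printed with it. The median collagen difference with scrambled siRNA ran from -0.051 to 0.080 as arrays were left out, and with CD24 siRNA against vehicle from -0.027 to 0.082. Among named genes, 5 values that passed no test changed sign, each without 1 array, whose lowest and highest values were -0.070 to 0.42 for Col18a1 with scrambled siRNA, -0.029 to 0.46 for Col18a1 and -0.034 to 0.11 for Tmem38b with CD24 siRNA, all negative without vehicle replicate 2, and -0.014 to 0.38 for Col1a1 between the siRNAs, negative without CD24 siRNA replicate 1. Over all alternatives of the named genes, 1425 values kept their side of the threshold, 276 passed it newly and 44 no longer passed. The number of collagens that differed by replicate number was 6 to 11. The cause of these changes was not tested.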
